A study of Mus musculus with 32 samples.

Results

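The genes described here encode the contractile machinery of striated muscle: the filaments of the sarcomere, the proteins that hold them in place, and the calcium release and uptake proteins that switch contraction on and off. The set had 36 genes, chosen by name and matched to the array by gene symbol, with 1 probe set standing for each gene. All 36 were on the array, among 18193 genes with 1 symbol there, and 34 were among the 13705 genes tested. The other two, Cacna1s and Cacng1, rose above the low-signal level of the array on 1 of 32 arrays each and are given as levels only.

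Expression was measured on Affymetrix arrays in the jaws of mouse embryos (strain label C57B6) at embryonic day 13.5. The mutants, labelled Alk5 Knockout, came from matings of Wnt1cre;Alk5fl/+ with Alk5fl/fl mice, in which the Cre recombinase driven by Wnt1 deletes floxed Alk5. Alk5, now named Tgfbr1, encodes the signalling receptor kinase through which TGF-beta acts. Mutants were recognised by cleft palate and a calvarial defect, and the controls were littermates, whose own genotype at Alk5 and Wnt1cre is not given in the sources used here. Mandible and maxilla were dissected and each was cut into a distal and a proximal end, which made 8 groups of 4 arrays numbered 1 to 4. Wnt1-Cre acts in the neural crest, which forms the connective tissue, cartilage and bone of the jaws, whereas the muscle fibres of the jaw and tongue come from mesoderm, so the fibres themselves are not known as targets of this Cre. The labels do not say whether the tongue was kept with the mandible, or whether arrays of a group came from separate embryos, so the p-values below rest on how far these arrays differ, which may in part be technical.

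As background, a sarcomere is a repeating unit in which thick filaments of myosin slide along thin filaments of actin. Troponin on the thin filament blocks the myosin sites until calcium binds, titin spans from the Z disc at the sarcomere's edge to the M band at its centre, and desmin ties neighbouring Z discs together. In excitation-contraction coupling a voltage sensor in the membrane opens the ryanodine receptor, calcium leaves its store, and a calcium pump returns it. Most of these proteins exist as fast, slow, embryonic and cardiac isoforms from separate genes, and embryonic skeletal muscle makes several of them at once. In bulk tissue such as this, fewer muscle cells and less RNA per muscle cell cannot be told apart.

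The promoters of 4 of these genes are printed because the results below turn on them: Mybpc1, Klhl41 and Myl1 led comparisons between regions, and Actc1 is the actin gene first made in embryonic muscle. Each window is the 250 bases before the RefSeq transcription start (assembly GRCm38.p6), read 5′ to 3′ on the gene's strand. Mybpc1 lies on the minus strand at chr10:88605153-88605402, Klhl41 on the plus strand at chr2:69669870-69670119, Myl1 on the minus strand at chr1:66945057-66945306 and Actc1 on the minus strand at chr2:114052876-114053125. Capitals mark matches on either strand to the E-box CANNTG, the MCAT box CATTCC, the TATA box TATAAA, the MEF2 site or the CArG box.
Mybpc1: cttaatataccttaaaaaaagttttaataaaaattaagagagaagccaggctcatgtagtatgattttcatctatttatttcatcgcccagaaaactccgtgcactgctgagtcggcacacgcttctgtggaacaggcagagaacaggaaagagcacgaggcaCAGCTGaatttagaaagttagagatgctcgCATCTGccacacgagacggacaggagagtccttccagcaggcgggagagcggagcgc
Klhl41: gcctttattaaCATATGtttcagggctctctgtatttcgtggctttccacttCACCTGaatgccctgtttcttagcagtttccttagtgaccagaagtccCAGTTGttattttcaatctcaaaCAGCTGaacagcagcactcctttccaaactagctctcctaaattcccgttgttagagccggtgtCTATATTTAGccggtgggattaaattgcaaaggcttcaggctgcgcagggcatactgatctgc
Myl1: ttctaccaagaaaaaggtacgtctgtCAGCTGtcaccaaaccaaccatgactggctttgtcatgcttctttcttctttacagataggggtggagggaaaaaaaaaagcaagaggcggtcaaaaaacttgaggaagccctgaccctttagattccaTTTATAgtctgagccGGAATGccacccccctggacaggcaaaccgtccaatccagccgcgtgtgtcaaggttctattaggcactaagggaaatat
Actc1: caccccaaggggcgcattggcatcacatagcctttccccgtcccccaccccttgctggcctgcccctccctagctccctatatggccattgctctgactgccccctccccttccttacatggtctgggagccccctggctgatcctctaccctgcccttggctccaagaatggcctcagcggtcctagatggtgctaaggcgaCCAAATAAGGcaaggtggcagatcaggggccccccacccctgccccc
Mybpc1 held 2 E-boxes, Klhl41 held 4 and a MEF2 site, Myl1 held 1 E-box with a MCAT and a TATA match, and Actc1 held a CArG box and no E-box. The table of promoters had an entry for 28 of the 36 genes. The E-box form CAGCTG, which is one form of the general E-box and is therefore counted within it, was in the window of 13 of the 28 (46.4%), against 14.7% of all 27025 genes with a window. The general E-box CANNTG was in 23 of 28 (82.1%) against 69.3%. CATTCC was in 7 (25%) against 14.4%, TATAAA in 6 (21.4%) against 14.3%, the MEF2 site in 4 (14.3%) against 3.42% and the CArG box in 4 (14.3%) against 1.62%. E-boxes are the sites that bind myogenic factors such as MyoD, and the MEF2 and CArG sites bind MEF2 proteins and serum response factor. These matches describe the letters of the windows and were not tested for binding.

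Some facts of the arrays bear on the results. Arrays of a group correlated at 0.926 to 0.997 over probe sets, and no pair of arrays held identical values. On control distal mandible array 3 the Gapdh probe set at the 3' end read 2.23 above that at the 5' end, as in degraded RNA, and on the other arrays 0.12 above it or less. Mutant distal maxilla array 1 had the narrowest spread of values (SD 2.37). The mean of the CreX spike-in control probe sets was 13.53 to 13.85 on arrays of number 1 and 12.17 to 13.07 on all others. In each mandible group array 1 also had the highest mean of the contractile genes. In control distal, mutant distal and control proximal maxilla it had the lowest. The cause was not tested, and a fit with number 1 as a covariate is given at the end. Hand2, a gene of the lower jaw, read 10.71 to 13.66 in the mandible groups and 5.76 to 10.17 in the maxilla groups, and its highest maxilla value was on control proximal maxilla array 3. That array and control distal maxilla array 3 also carried Xist at 10.72 and 9.69 together with the Y-linked gene Eif2s3y at 10.03 and 10.23. On every other array either Xist was under 7 or Eif2s3y under 5. Whether RNA of more than 1 embryo was mixed on these arrays was not tested. The probe set of the targeted gene Tgfbr1 read 12.55 to 12.82 on control and 12.80 to 13.32 on mutant arrays and did not fall; which exons it covers is not given in the sources used here, so it does not check the deletion.

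The contractile genes rose and fell together from array to array. Their mean over the 34 tested genes, on the log2 scale, was 9.54 ± 0.37 (SD, n = 4) in control and 9.43 ± 0.50 in mutant proximal mandible, 7.63 ± 0.65 and 8.69 ± 0.51 in distal mandible, 7.28 ± 0.69 and 7.87 ± 1.12 in proximal maxilla, and 7.37 ± 1.03 and 6.98 ± 0.46 in distal maxilla. The highest group mean was in control proximal mandible for 22 of the 36 genes and in mutant proximal mandible for 13. The proximal mandible, where the jaw-closing muscles and the base of the tongue lie, was the region of highest signal for every gene except Ckm. The mean of Ckm was highest in mutant distal maxilla, where array 1 read 7.99 against 6.85 to 6.98 on the other arrays. The heat map of all 36 genes shows this pattern in each functional class, with a smaller range for Tnni2, Tcap, Actn3, Mb, Xirp1 and Ckm.

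**Figure D1:**
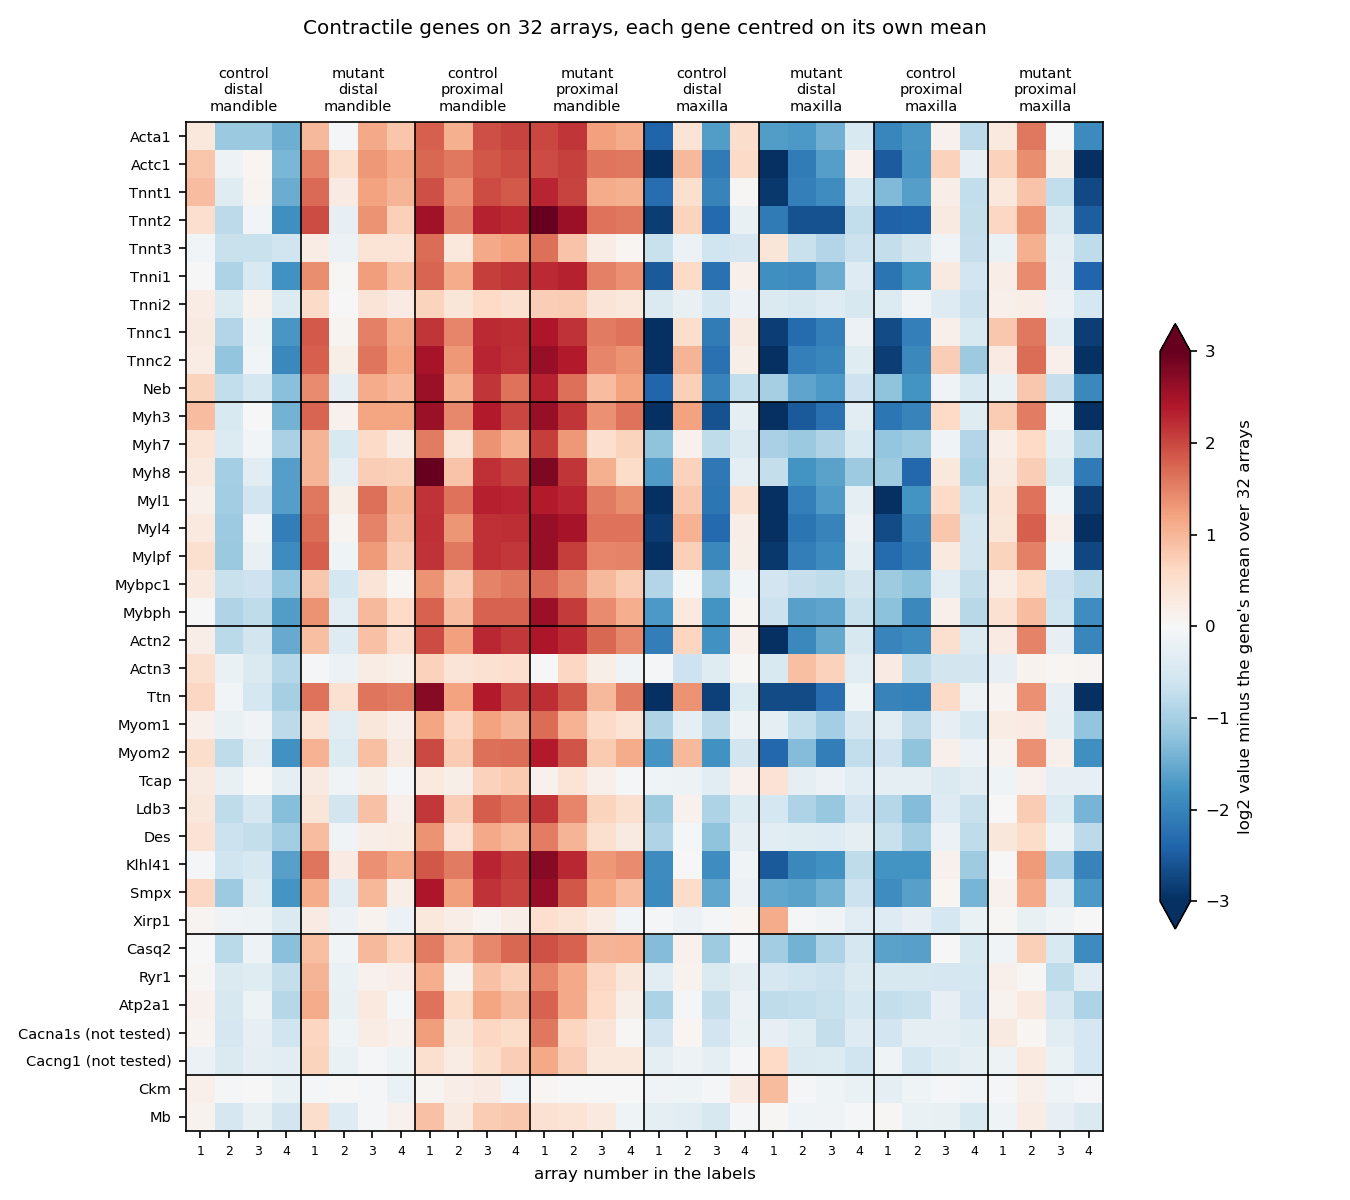
Heat map of the 36 contractile genes (rows, grouped by role: thin filament, thick filament, Z disc to M band, calcium handling, energy and oxygen) on the 32 arrays (columns). Colour is the log2 value minus the gene's mean over 32 arrays, cut at -3 and 3; the 8 proximal mandible columns are red for nearly all genes, and single arrays within the distal mandible and maxilla groups are high or low for nearly all genes at once.

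Within a group, the same array was high or low for most of the genes. In the control distal mandible the means of arrays 1 to 4 were 8.42, 7.46, 7.79 and 6.85, and array 1 held the highest value for 34 of 34 genes and array 4 the lowest for 33. Over all tested genes, array 1 was the highest for 33.7% and array 4 the lowest for 34.6%. In the mutant proximal maxilla the means were 8.31, 9.01, 7.82 and 6.36, with array 2 highest for 32 genes and array 4 lowest for 29, against 20.7% and 16.1% of all genes. The control distal maxilla gave 6.34, 8.45, 6.66 and 8.04, so arrays 2 and 4 lay about as high as the distal mandible and arrays 1 and 3 near the low-signal level, which was 6.66 to 6.86. The median SD within a group was 0.69 for the contractile genes in control distal mandible and 1.21 in mutant proximal maxilla, against 0.18 and 0.15 for all genes. Markers of other tissues differed on the same maxilla arrays. On control distal maxilla array 2 the mean of the neural crest list was 10.40 and that of the epithelial list 9.67, against 11.42 to 11.58 and 11.06 to 11.26 on the other 3 arrays. The neural crest genes did not fall evenly there. Dlx5 read 9.90 against 11.04 to 11.36 and Dlx6 7.74 against 9.05 to 9.33, but Prrx1 read 13.08 against 13.20 to 13.25. The mean of that list thus need not follow the amount of neural crest tissue. Mutant distal maxilla array 4, the highest of its group for the contractile genes, had 10.29 and 10.34 against 11.28 to 11.55 and 10.93 to 11.22, and mutant proximal maxilla array 2 had 9.84 and 9.52 against 10.64 to 11.46 and 10.67 to 11.20. These lists were thus lowest where the contractile genes were highest in those 3 groups, and their part in the spread was not tested. In control proximal maxilla array 3 was the highest for the contractile genes, and array 4 had the lowest means of both lists (10.53 and 10.31). The spread from array to array sets how small a difference could be seen: the median SE of a difference was 0.58 for these genes and 0.13 for all genes.

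**Figure D2:**
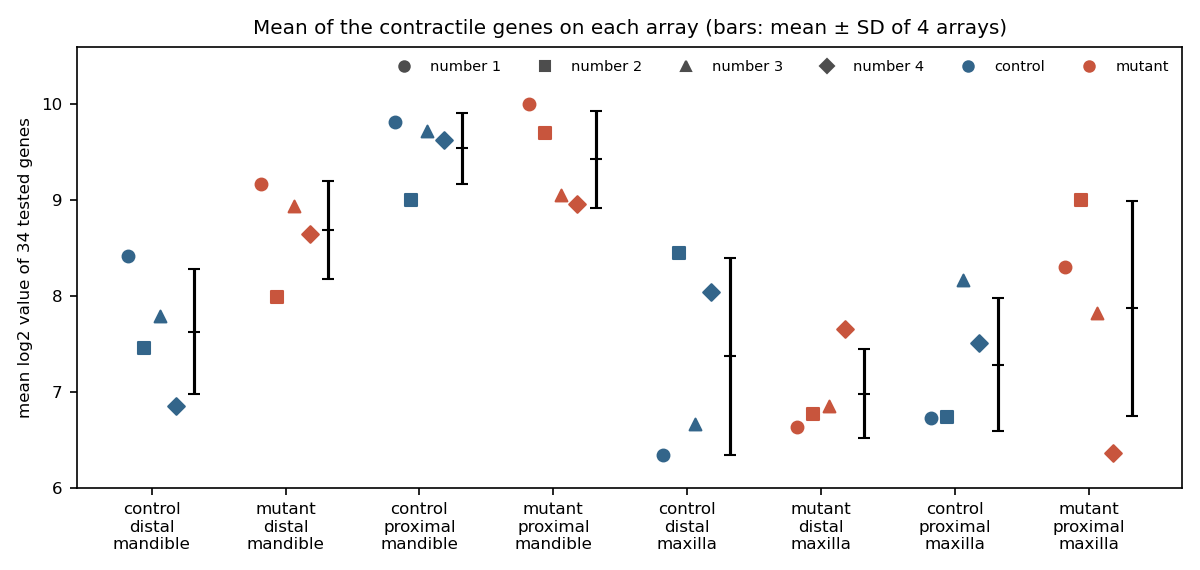
Mean log2 value of the 34 tested contractile genes on each array, by group; blue symbols are control and red symbols mutant arrays, the symbol gives the array number, and the bar is the mean ± SD of 4 arrays. The proximal mandible arrays lie between 8.96 and 10.00, and the 4 arrays of mutant proximal maxilla between 6.36 and 9.01.

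At the proximal ends of control jaws, the contractile genes were higher in the mandible than in the maxilla. Of the 34 tested, 29 passed at an adjusted p under 0.05 (limma, Benjamini-Hochberg over all 13705 genes), all of them higher in the mandible, where 2.33% of all genes were called higher. Tnnt3 is among the 29 and would not have been tested without control proximal mandible, so its p is a description only. The median difference was 2.58 on the log2 scale, where 1 is a 2-fold change, against 0.01 over all genes. The 4 mandible arrays lay above the 4 maxilla arrays for 33 of the 34 genes, against 5.93% of all genes. Of the 9 genes above the low-signal level on every array, which the filter could not have picked through 1 group, 7 were called higher. Without control proximal maxilla array 3, the array with high Hand2, 29 genes were again called and the median was 2.95; leaving out all arrays of number 3 left 15.

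In the thin filament, 9 of 10 genes, Tnnt3 among them, were higher in control proximal mandible than in proximal maxilla, with a median of 2.77. Tnni2 (probe set 1438609_x_at), the fast-fibre troponin I that holds the filament off, read 8.17, 7.84, 8.09 and 7.96 on mandible arrays 1 to 4 and 7.08, 7.39, 7.10 and 6.85 on the maxilla arrays. The lowest mandible array stood clear of the highest maxilla array. The difference was 0.91 ± 0.16 (SE), a 1.88-fold change (adjusted p = 0.000642). Tnnt2, the cardiac troponin T that anchors troponin to tropomyosin and is also made in embryonic skeletal muscle, showed the widest difference of all 34, 3.46 ± 0.78 or 11.0-fold (adjusted p = 0.00613). The calcium-binding subunits Tnnc2 and Tnnc1 differed by 3.35 and 3.28. Tnnc2 (1417464_at) read 11.18, 10.00, 10.99 and 10.88 in the mandible against 5.86, 6.77, 9.43 and 7.60 in the maxilla, where array 3 stood above the other three. Neb, the giant ruler of thin filament length, differed by 2.75, and the skeletal actin gene Acta1 by 2.79. The cardiac actin gene Actc1 differed by 2.74 ± 1.00 with no overlap of arrays, and did not pass (adjusted p = 0.13).

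In the thick filament, 7 of 8 genes were higher, with a median of 3.07. Mybpc1 (1455645_at), the slow-type myosin-binding protein C that links thick to thin filaments, had the smallest p of the set. It read 8.87, 8.27, 9.02 and 9.11 on the control proximal mandible arrays and 6.47, 6.30, 7.21 and 6.80 on the maxilla arrays. All mandible values lay above 8, and 2 maxilla values lay under the low-signal level. The difference was 2.12 ± 0.33 (SE; 95% interval 1.44 to 2.80), or 4.35-fold (adjusted p = 0.00015). Myl1 (1452651_a_at), the alkali light chain of fast myosin, read 12.12, 11.59, 12.28 and 12.24 against 6.68, 8.15, 10.54 and 9.28. Its mandible arrays were tightly grouped and its maxilla arrays widely spread, with a difference of 3.39 ± 0.85 (adjusted p = 0.0147). Myl4, the embryonic and atrial light chain, differed by 3.08 (adjusted p = 0.0485) and the neonatal myosin heavy chain gene Myh8 by 3.05. Myh3, the embryonic heavy chain that first builds the fibres, differed by 3.09 ± 0.96 without overlap and did not pass (adjusted p = 0.0567).

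Among the 11 genes of the Z disc, M band, titin and intermediate filament, 9 were higher, with a median of 1.98. Ldb3, the Z disc protein Cypher, differed by 2.37 ± 0.42 (adjusted p = 0.000617). Smpx, a small stretch-responsive muscle protein, differed by 3.18 ± 0.59 (adjusted p = 0.000983), and Klhl41, which stabilises nebulin, by 3.08 ± 0.57 (adjusted p = 0.00106). Ttn, which encodes titin, differed by 2.98 (adjusted p = 0.0495) and Des, which encodes desmin, by 1.64. Myom2 and Xirp1 did not pass, at 1.98 and 0.54 (adjusted p = 0.0552 and 0.116). All 3 tested calcium-handling genes were higher: Casq2, the calcium buffer of the store, by 2.34 ± 0.44 (adjusted p = 0.00118), the calcium pump Atp2a1 by 1.63, and the ryanodine receptor Ryr1 by 1.20. The oxygen-binding myoglobin gene Mb differed by 0.89 and the creatine kinase gene Ckm by 0.25, and Mb alone of these passed (adjusted p = 0.00221 against 0.498).

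The 2 subunits of the voltage sensor that failed the filter followed the same order of levels. Cacna1s, its pore, read 6.51, 5.58, 5.86 and 5.79 on the control proximal mandible arrays and 4.68, 4.95, 4.99 and 4.88 on the proximal maxilla arrays. Every mandible array lay above every maxilla array, and all 8 lay under the low-signal level. Cacng1 read 6.36, 6.10, 6.40 and 6.62 against 5.75, 5.35, 5.52 and 5.58, again without overlap. RMA compresses differences at such levels, so their size is approximate.

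**Figure D3:**
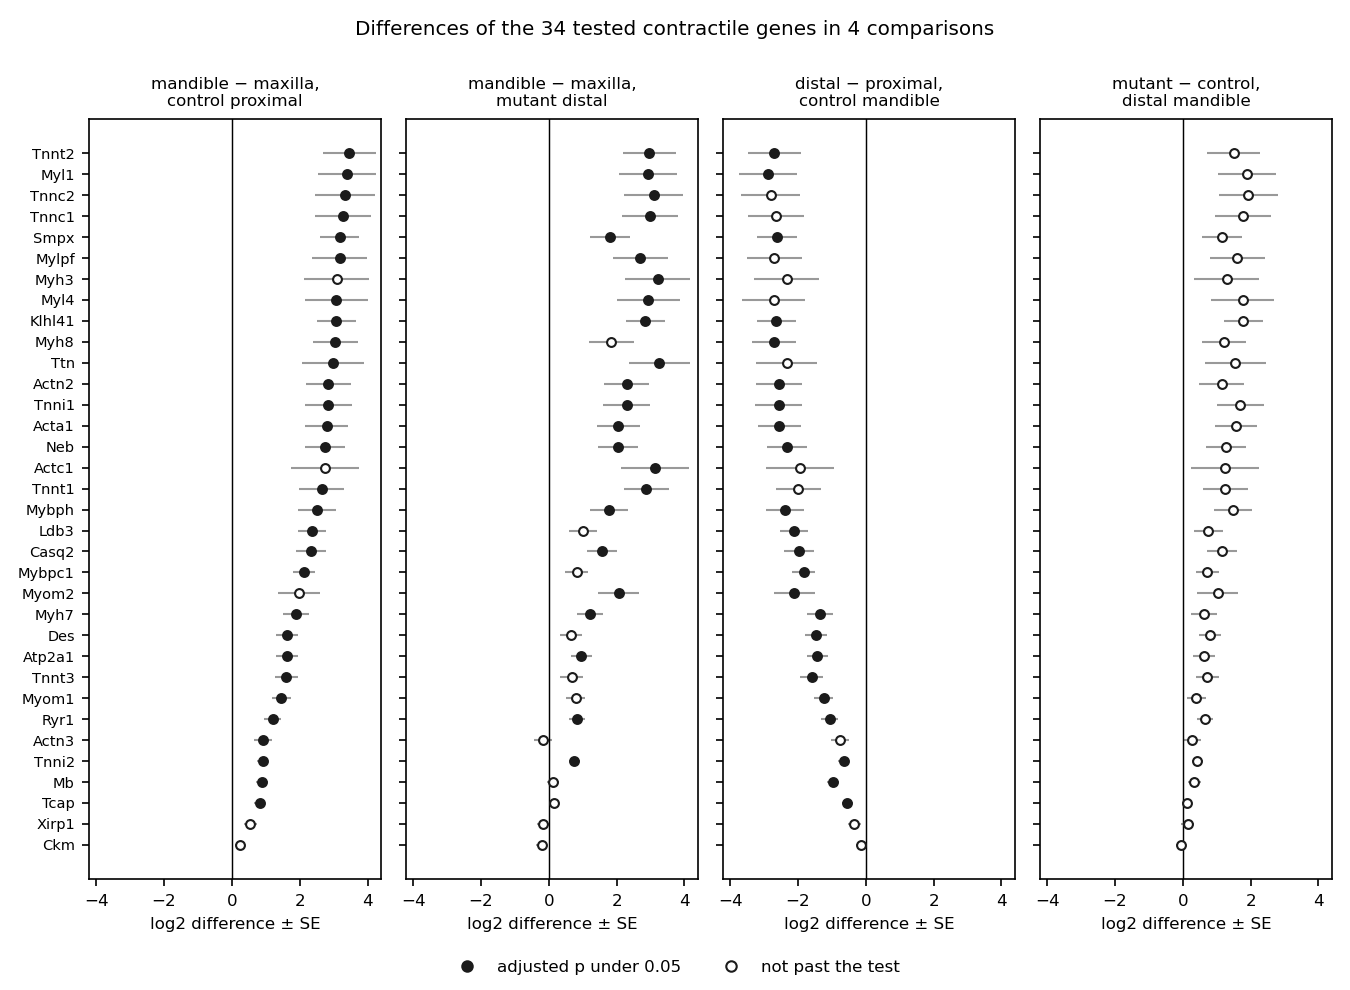
Log2 difference ± SE of the 34 tested contractile genes (rows, ordered by the first panel) in 4 comparisons; filled points have an adjusted p under 0.05 (limma) and open points do not. The first panel has 29 filled points and the third 23 on the negative side, while the fourth, mutant minus control in the distal mandible, has 33 of 34 points above 0 and none filled.

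The distal ends of control jaws gave another picture. None of the 34 genes passed between mandible and maxilla, against 1.47% of all genes called, and 0 had an unadjusted p under 0.05 in limma. The median was 0.19, with 26 genes above 0. Tnni2 had the smallest p and read 7.72, 7.09, 7.59 and 7.08 in the mandible and 7.06, 7.27, 6.95 and 7.31 in the maxilla (0.22 ± 0.16, adjusted p = 0.755). Ttn (1427445_a_at) read 9.04, 8.33, 7.88 and 7.42 against 4.94, 9.77, 5.62 and 8.0 (1.09 ± 0.90, adjusted p = 0.813). Maxilla arrays 2 and 4 lay within the mandible range for Ttn or above it, and arrays 1 and 3 lay under the low-signal level. Myh3 (1427115_at) split the same way, with 10.83, 9.45, 9.89 and 8.49 in the mandible and 6.31, 11.11, 7.28 and 9.64 in the maxilla (1.08 ± 0.96, adjusted p = 0.83). So did Neb (1435355_at), at 7.44, 6.03, 6.24 and 5.52 against 4.39, 7.49, 4.78 and 6.02 (0.64 ± 0.59, adjusted p = 0.841). Hand2 on those maxilla arrays was 7.63, 9.33, 8.52 and 8.40, and its part in this was not tested. The 95% intervals ran from -0.76 to 2.94 for Ttn, -0.11 to 0.55 for Tnni2, -0.72 to 0.65 for Mybpc1 and -0.90 to 1.45 for Klhl41. Whether the difference between jaws itself changed from the proximal to the distal end was not tested. Without control distal maxilla array 3, which carried Xist with the Y-linked gene, the median was -0.06 and again no gene passed.

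In the mutants, the distal mandible carried more of these transcripts than the distal maxilla. Here 23 of 34 genes were higher in the mandible and none lower (adjusted p under 0.05), against 4.39% of all genes called higher, with a median of 1.82. The arrays did not overlap for 26 genes, against 7.98% of all genes. Klhl41 led. It read 8.30, 6.94, 8.07 and 7.83 on the mutant distal mandible arrays and 4.16, 4.76, 4.89 and 5.94 on the distal maxilla arrays. The mandible arrays lay above the low-signal level and the maxilla arrays all under it, with a difference of 2.84 ± 0.57 (adjusted p = 0.00117). The slow and cardiac troponin T genes Tnnt1 and Tnnt2 differed by 2.88 and 2.97 (adjusted p = 0.00425 and 0.0107), Ttn by 3.26 ± 0.90 (adjusted p = 0.0148) and Tnnc1 by 2.98 ± 0.83 (adjusted p = 0.0154). Tnni2 differed by 0.75 ± 0.16 (adjusted p = 0.00218). By role, 9 of 10 thin filament genes, 6 of 8 thick filament genes, 5 of 11 Z disc and M band genes and all 3 tested calcium-handling genes passed. Mb and Ckm did not, at 0.12 and -0.21. The count was 10 without the 2 arrays of doubtful RNA or spread named above, of which mutant distal maxilla array 1 enters here, and the median was then 1.80. Leaving out number 1, 2 or 3 in both groups left 3, 13 or 2 genes. Without single arrays the count was 7, 7 and 15 (mandible 1, 3 and 4) and 11, 12 and 15 (maxilla 1, 2 and 3).

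At the proximal ends of mutant jaws 8 of 34 genes were higher in the mandible and none lower, against 1.26% of all genes called higher. In limma the 8 were Ryr1 (1.12 ± 0.24, adjusted p = 0.00681), Casq2 (1.87 ± 0.44, adjusted p = 0.0135), Mybpc1 (1.38 ± 0.33, adjusted p = 0.0162), Myom1 (1.17 ± 0.28, adjusted p = 0.0163), Klhl41 (2.36 ± 0.57, adjusted p = 0.0179), Tnni2 (0.63 ± 0.16, adjusted p = 0.026), Atp2a1 (1.18) and Mybph (2.06). All 3 tested calcium-handling genes were among them. The median difference, 1.85, was within the range of the comparisons above, but the mutant proximal maxilla arrays were widely spread and 11 genes had no overlap of arrays, against 3.62% of all genes. Ryr1 read 8.52, 8.19, 7.68 and 7.39 in the mutant proximal mandible and 7.21, 7.09, 6.29 and 6.72 in the proximal maxilla. The groups did not overlap, and the 2 highest arrays of each were numbers 1 and 2. The call rested on single arrays: without mutant proximal mandible array 1 or 2, or without mutant proximal maxilla array 4, Ryr1 was the 1 gene called, without maxilla array 3 there were 3, and without maxilla array 2 there were 16. Without number 1, 3 or 4 in both groups there were 4, 0 or 1, and in a fit of these 8 arrays alone there were 0.

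Whether the difference between jaws itself changed with genotype was tested as an interaction. At the distal end it had a median of 1.67 over the 34 genes, with 31 above 0, and no gene passed in limma, while 15 had an unadjusted p under 0.05. Klhl41 was closest (2.57 ± 0.81, adjusted p = 0.394), followed by Ryr1 (0.96 ± 0.34, adjusted p = 0.508), Casq2 (1.56 ± 0.62) and Acta1 (2.11 ± 0.89). Over all genes 0.102% were called, and 1001 of 13705 had an unadjusted p under 0.05. At the proximal end the median was -0.72 with 34 genes below 0, 0 passing in limma (0.0073% of all genes) and 1, Tcap, with an unadjusted p under 0.05 (-0.53 ± 0.22). Actn3 (-0.74 ± 0.38), Mb (-0.48 ± 0.25) and Tnnt3 (-0.87 ± 0.48) came next. Of all 13705 genes 298 had an unadjusted p under 0.05 there. The 4 distal groups enter both the interaction and the single comparisons above, so these values do not stand apart from them.

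Along the control mandible, the contractile genes fell towards the distal end. Distal minus proximal, 23 of 34 were lower and none higher (limma, adjusted p under 0.05), against 2.55% of all genes called lower, and the median was -2.12. Tnnt3, which entered the test through the control proximal mandible, is among the 23. The distal arrays lay below the proximal arrays for 29 genes, against 5.81% of all genes. Of the 9 genes above the low-signal level on every array, 6 were lower. The control proximal mandible arrays are shared with the comparison of jaws above, so both rest on the same high values.

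Mybpc1 read 7.82, 6.85, 6.90 and 6.35 in the control distal mandible against 8.87, 8.27, 9.02 and 9.11 in the proximal mandible, a difference of -1.84 ± 0.33 (95% interval -2.52 to -1.15, adjusted p = 0.00146). Distal array 1 was the highest of its group and still lay under every proximal array. Mb (1451203_at) read 7.39, 6.79, 7.07 and 6.72 against 8.17, 7.54, 8.05 and 8.08, a difference of -0.97 ± 0.18 (adjusted p = 0.00168). Its groups did not overlap either, although its levels moved over a narrow range. Ldb3 (1433783_at) read 6.72, 5.62, 5.87 and 5.10 against 8.49, 7.10, 8.19 and 8.0, a difference of -2.12 ± 0.42 (adjusted p = 0.00291). Tnnt3 (1450118_a_at), the fast troponin T, read 6.12, 5.53, 5.53 and 5.61 against 7.88, 6.51, 7.35 and 7.44, a difference of -1.60 ± 0.34 (adjusted p = 0.00584). All distal values of Tnnt3 lay under the low-signal level, a range in which RMA compresses differences. Tnnt3 was above that level on 6 of 32 arrays, 3 of them in control proximal mandible, and would not have been tested without that group, so its p is a description only. The largest fall was in Myl1, at -2.88 ± 0.85 (adjusted p = 0.0478): it read 10.10, 8.92, 9.38 and 8.30 distally and 11.59 or more on every proximal array.

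By role, 6 of 10 thin filament genes fell (median -2.43), among them the slow troponin I gene Tnni1 at -2.57, Acta1 at -2.55, and also Tnnt3. Of the thick filament genes 5 of 8 fell (median -2.54), including Myh8 at -2.71 and Mybph at -2.39, and Myh3 (-2.34), Myl4 (-2.72) and Mylpf (-2.70) did not pass (adjusted p = 0.199, 0.101 and 0.0507). Of the Z disc, M band and titin genes 8 of 11 fell (median -2.11), including Klhl41 at -2.64, Smpx at -2.63 and Actn2, the Z disc crosslinker alpha-actinin, at -2.56. All 3 tested calcium-handling genes fell: Casq2 at -1.97, Atp2a1 at -1.43 and Ryr1 at -1.07. Ckm differed by -0.14 ± 0.15. The calls depended on which arrays were left out. Without all arrays of number 3 none passed, with the median still -2.11, and without number 4 there were 3. Leaving out single control arrays gave 14 and 10 (distal 2 and 4) and 14 and 13 (proximal 1 and 3), and 26 without distal array 1; without distal array 3, the one with the high Gapdh difference, it was 17.

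In the mutant mandible the distal end was also the lower one for 34 of 34 genes, with a median of -0.79. However, none of the 34 passed in limma, against 5.03% of all genes called. An unadjusted p under 0.05 was found for 2040 of all 13705 genes and for 7 of the 34. Mybpc1 was closest, at 8.34, 6.99, 7.92 and 7.58 distally and 9.21, 8.96, 8.49 and 8.28 proximally (-1.03 ± 0.33, adjusted p = 0.0737). The highest distal array, number 1, overlapped the proximal group. Myom1, an M band crosslinker, differed by -0.76 ± 0.28 (adjusted p = 0.145), Ryr1 by -0.61 ± 0.24 and Ldb3 by -0.98 ± 0.42. The arrays did not overlap for 3 genes, against 12.4% of all genes. Without mutant distal mandible array 1, Mybpc1 and Ryr1 passed. The interaction of genotype with end in the mandible had a median of 1.19 and all 34 genes above 0, with 0 passing (0.0219% of all genes). An unadjusted p under 0.05 was found for 581 of all 13705 genes and for 5 of the 34. Mb was closest at 0.76 ± 0.25 (adjusted p = 0.741), before Tnnt3 (1.12 ± 0.48), Klhl41 (1.79 ± 0.81) and Des (0.96 ± 0.46). A smaller fall along the mutant mandible was therefore not shown for any single gene.

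Between the ends of the maxilla none of the 34 genes passed. In controls the median of distal minus proximal was 0.13, with 0 genes at an unadjusted p under 0.05 in limma, and no gene of the whole array passed (0%). Xirp1 (0.28 ± 0.19), Tcap (0.20 ± 0.16), Ryr1 (0.27 ± 0.24) and Mybpc1 (0.32 ± 0.33) had the smallest p. In mutants the median was -0.89 with 29 genes below 0, and again no gene of the array passed (0%). An unadjusted p under 0.05 was found for 555 of all 13705 genes and for 6 of the 34. Myom2 (-1.57 ± 0.61), Actn2 (-1.70 ± 0.67), Klhl41 (-1.33 ± 0.57) and Tnnt2 (-1.79 ± 0.78) had the smallest p, each with an adjusted p of 0.999. Actc1 shows how the arrays lay. Actc1 read 7.34, 9.75, 10.20 and 11.97 in mutant distal maxilla and 12.54, 13.25, 12.03 and 8.27 in proximal maxilla. Proximal array 4 was the lowest of its group by far and overlapped the distal arrays. The interaction of genotype with end in the maxilla had a median of -1.02, no call among the 34 in limma (0.0584% of all genes) and 0 genes at an unadjusted p under 0.05. Actn2 (-1.87 ± 0.95), Smpx (-1.54 ± 0.83), Myh7 (-1.0 ± 0.54) and Klhl41 (-1.50 ± 0.81) had the smallest p.

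**Figure D4:**
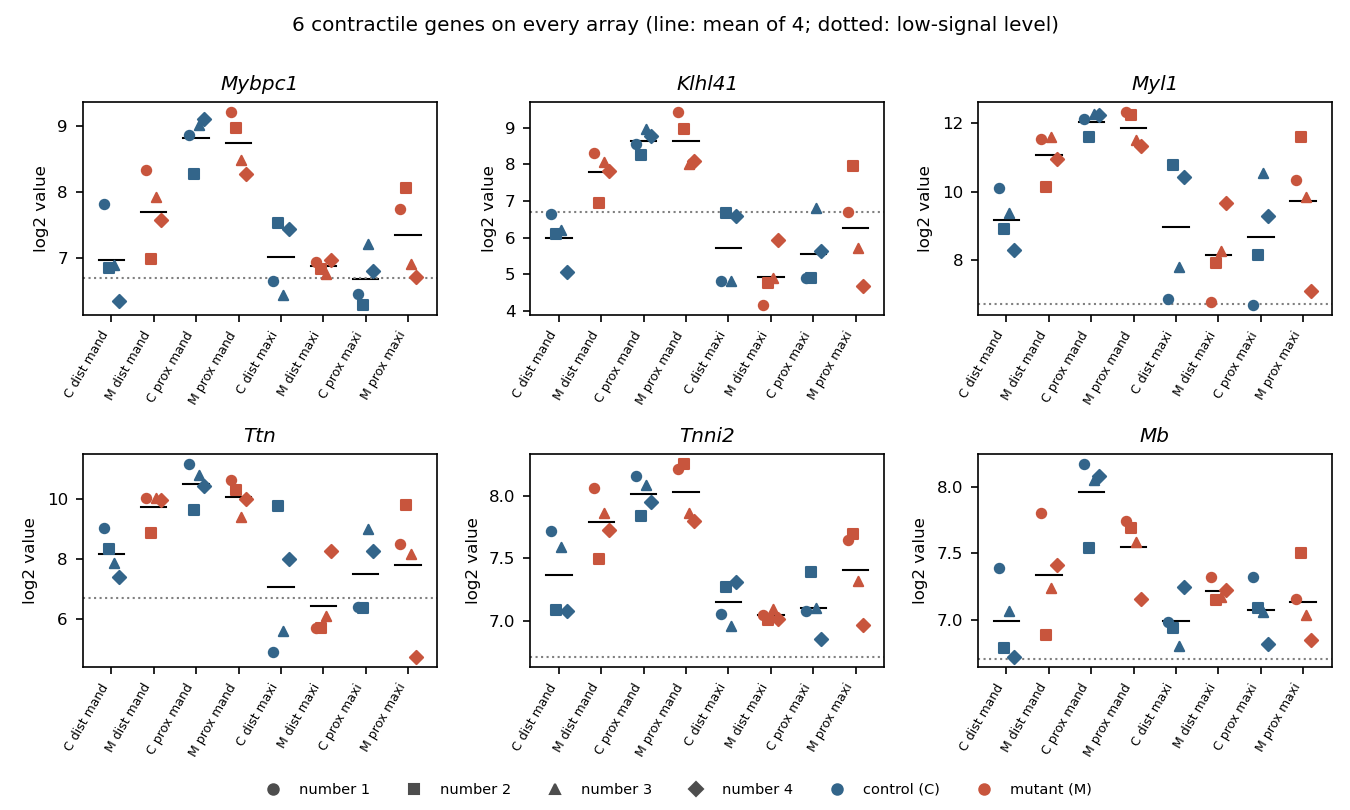
Log2 values of Mybpc1, Klhl41, Myl1, Ttn, Tnni2 and Mb on every array, by group (C control, M mutant; dist distal, prox proximal); blue is control and red mutant, the symbol gives the array number, lines are means of 4 and the dotted line is the low-signal level. Klhl41 reads 6.94 to 8.30 in mutant and 5.07 to 6.66 in control distal mandible, and the maxilla groups spread from under the dotted line to well above it.

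The genotype effect, mutant minus control, was asked in each of the 4 regions. In the distal mandible, 33 of 34 genes were higher in the mutant, with a median of 1.15 against -0.03 over all genes, and no gene passed the test in limma, where 1.91% of all genes were called and 0.482% called higher. At an unadjusted p under 0.05 there were 14, against 2193 of all 13705 genes. The groups did not overlap for 3 genes, Klhl41, Myl1 and Tnni1, against 4.3% of all genes. The genes rose and fell together on each array, so their common sign is not that of 34 separate measurements.

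Klhl41 had the smallest p of this comparison. It read 8.30, 6.94, 8.07 and 7.83 in mutant and 6.66, 6.09, 6.20 and 5.07 in control distal mandible. All mutant arrays lay above the low-signal level and all control arrays below it, and the difference was 1.78 ± 0.57 (95% interval 0.60 to 2.96, 3.43-fold, adjusted p = 0.109). Ryr1 read 8.07, 6.87, 7.19 and 7.24 against 7.10, 6.61, 6.69 and 6.35 (0.65 ± 0.24, adjusted p = 0.17). Mutant array 1 was the highest and mutant array 2 lay within the control range. Mybph, a relative of myosin-binding protein C, differed by 1.48 ± 0.56 (adjusted p = 0.175) and Casq2 by 1.16 ± 0.44 (adjusted p = 0.181).

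The 4 genes with the largest mean size of genotype effect over the regions were Tnnc2, Myl1, Tnnc1 and Myl4. Tnnc2 read 10.49, 8.88, 10.30 and 9.89 in mutant and 8.91, 7.52, 8.62 and 6.76 in control distal mandible (1.94 ± 0.88, 95% interval 0.13 to 3.74, adjusted p = 0.274). Mutant array 2 fell just within the control range and the other mutant arrays lay above it. Myl1 read 11.54, 10.14, 11.61 and 10.96 against 10.10, 8.92, 9.38 and 8.30 (1.89 ± 0.85, adjusted p = 0.269), with the lowest mutant array just above the highest control array. Tnnc1 (1418370_at) read 11.50, 9.74, 11.17 and 10.79 against 9.93, 8.78, 9.51 and 7.91 (1.77 ± 0.83, adjusted p = 0.288). Myl4 (1422580_at) read 10.92, 9.32, 10.72 and 10.12 against 9.53, 8.16, 9.17 and 7.16 (1.77 ± 0.93, adjusted p = 0.353). In both, array 2 was the lowest mutant and lay within the control range. Tnni2 differed by 0.42 ± 0.16, Mb by 0.34 ± 0.18, and Ckm was the 1 gene below 0, at -0.04. The median effect ran from 0.84 without control array 4 to 1.49 without control array 1, and no gene passed in any of these fits.

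In the other regions no gene passed either. In the proximal mandible the median effect was -0.09, with 12 genes above 0 and 22 below, against 1.26% of all genes called. An unadjusted p under 0.05 was found for 1628 of all 13705 genes and for 2 of the 34. These were Mb (-0.42 ± 0.18, adjusted p = 0.326), read at 7.74, 7.69, 7.58 and 7.16 in mutant and 8.17, 7.54, 8.05 and 8.08 in control, and Tcap, the titin cap (-0.33 ± 0.16, adjusted p = 0.408). Control array 2 was the low one of its group and put the groups of Mb in overlap. Actn3, the fast-fibre alpha-actinin, differed by -0.34 ± 0.27 and Tnnt3 by -0.39 ± 0.34. In the distal maxilla the median was -0.40, with 27 genes below 0 and none at an unadjusted p under 0.05, against 0.788% of all genes called. Actn3 (0.46 ± 0.27, adjusted p = 0.512), Actn2 (-1.04 ± 0.67, adjusted p = 0.568), Klhl41 (-0.79 ± 0.57, adjusted p = 0.624) and Myom2 (-0.83 ± 0.61, adjusted p = 0.63) had the smallest p. In the proximal maxilla all 34 were above 0, with a median of 0.59, none at an unadjusted p under 0.05, and 0.0657% of all genes called. Mybpc1 (0.66 ± 0.33), Des (0.65 ± 0.33), Tnni2 (0.30 ± 0.16) and Myh7, the slow myosin heavy chain (0.71 ± 0.38), had the smallest p, each with an adjusted p of 0.999.

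The medians of the maxilla depended on single arrays. Without control distal maxilla array 3 the median in the distal maxilla was -0.73. In the distal maxilla it ran from -0.78 without number 1 to 0.02 without number 2, and in the proximal maxilla from 0.07 without number 2 to 1.11 without number 4. Averaged over the 4 regions of each genotype and number, 4 against 4, the median genotype effect was 0.26. All 34 genes were above 0 and none passed (1.37% of all genes called). An unadjusted p under 0.05 was found for 1924 of all 13705 genes and for 6 of the 34. Acta1 (0.51 ± 0.16, adjusted p = 0.193), Tnni1 (0.56 ± 0.19, adjusted p = 0.21), Klhl41 (0.42 ± 0.15, adjusted p = 0.242) and Des (0.39 ± 0.16, adjusted p = 0.318) had the smallest p.

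Fast, slow and embryonic isoforms were set side by side, counting Casq1, the fast-fibre calcium buffer outside the set of 36, with the fast genes. Between control proximal jaws 7 of 7 fast genes (median 1.60), 7 of 7 slow or cardiac genes (median 2.84) and 2 of 4 embryonic or neonatal genes (median 3.07) were higher in the mandible. Along the control mandible 4 of 7 fast genes (median -1.43), 5 of 7 slow or cardiac genes (median -2.56) and 1 of 4 embryonic or neonatal genes (median -2.53) were lower distally. Tnnt3, whose p is a description only, is counted among the fast genes called in both of these comparisons. In the distal mandible the genotype effect had medians of 0.63, 1.26 and 1.28 with 0 genes passing in each class. Several fast genes, such as Tnnt3 and Tnni2, lay near the low-signal level, so their smaller differences cannot be told apart from compression. For Tnni2 the size also depended on the probe set. The other Tnni2 probe set past the filter had a mean over 32 arrays of 7.41, against 7.49 for the chosen one. It differed by 1.86 ± 0.43 (SE) between control proximal jaws, against 0.91. Along the control mandible it differed by -1.59 against -0.65, and for genotype in the distal mandible by 1.03 against 0.42. The difference between the classes was not tested. Casq1 was the 1 gene with a genotype call, lower in the mutant proximal mandible (-0.51 ± 0.12, adjusted p = 0.0303).

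Genes of the same muscle programme outside the set, on lists written for this tissue with earlier results of these arrays known, were counted in the same way. Shares of all genes called higher in the mandible, or lower distally, are those given above. Between control proximal jaws 14 of 29 further sarcomere genes were higher in the mandible and none lower (median 0.59). They included Myot, the Z disc protein myotilin (2.40 ± 0.40, adjusted p = 0.000284), Myoz2 (2.12, adjusted p = 0.000813), Klhl40 (1.45, adjusted p = 0.00106) and the sarcomere assembly gene Smyd1 (1.83, adjusted p = 0.00111). Of 20 further excitation-contraction genes 6 were higher (median 0.13), led by Casq1 (0.70), Stac3, a partner of the voltage sensor (0.92), the calcium-binding Hrc (0.99) and Jph2, which joins the calcium store to the membrane (0.51). Of 9 genes of muscle energy metabolism 4 were higher: Pgam2 (1.17), Pygm (0.94), Cox6a2 (0.73) and Cox8b (0.50). Of 12 genes of the neuromuscular junction 4 were higher, the acetylcholine receptor subunits Chrna1 (2.26), Chrng (1.75) and Chrnb1 (1.55) and their anchor Rapsn (1.57).

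Of 25 myogenic regulators and fusion genes 10 were higher in control proximal mandible and 1 lower. Rapsn and Chrna1, also on this list, the myoblast fusion protein myomaker (Mymk, 2.06) and the muscle cadherin gene Cdh15 (1.74) led the higher. The lower one was Pax3, which also marks neural crest (-2.49 ± 0.52, adjusted p = 0.00296), named after its values were seen. Along the control mandible the same lists gave 13 of 29, 6 of 20, 3 of 9, 4 of 12 and 9 of 25 genes lower distally, among them Smyd1 (-1.88), Casq1 (-0.54), Pgam2 (-1.24), Chrng (-1.45) and Chrna1 (-1.83), with Pax3 (3.64) and the junction gene Lrp4 (0.47) higher. Lrp4 was named after its values were seen. In the mutants, between distal jaws, 5 of 29 sarcomere, 4 of 20 excitation-contraction and 10 of 25 myogenic genes were higher in the mandible, including Unc45b, a myosin chaperone (1.39), Sln, a calcium pump inhibitor (2.39), and Mymk (1.59). Pax7, a gene of muscle progenitors and neural crest, was lower (-2.15), as was Cacna2d1 (-0.91). At the proximal ends of mutant jaws 8 of 29, 1 of 20 and 9 of 25 were higher in the mandible, and 2 of the 25, Pax3 (-3.0) and Eya1 (-1.05), were lower.

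Few genes of these lists differed between mutant and control. In the distal mandible none of 29 sarcomere, 20 excitation-contraction, 25 myogenic or 12 junction genes passed, with medians of 0.21, 0.09, 0.45 and 0.20. Smyd1, named after its values were seen, differed by 1.16 ± 0.34 (adjusted p = 0.0779). In the metabolism list Eno3, the muscle form of enolase, was higher in the mutant in all 4 regions, by 1.04 in distal mandible (adjusted p = 0.00245), 1.01 in proximal mandible (adjusted p = 0.00324), 1.19 in distal maxilla (adjusted p = 0.00307) and 1.13 in proximal maxilla (adjusted p = 0.0113). Eno3 did not follow the muscle genes between regions, at 0.12 ± 0.18 along the control mandible and 0.31 ± 0.18 between control proximal jaws. Mef2c was lower in the mutant distal maxilla (-1.11 ± 0.25, adjusted p = 0.0348). Among tendon and connective tissue genes Kera and Osr1 were lower in the mutant distal mandible (-2.07 and -1.42, adjusted p = 0.0244 and 0.0355).

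Markers of other tissues differed between the same regions. Of 11 neuron markers 4 were lower in control proximal mandible than in proximal maxilla (median -1.88), including Elavl3 (-2.64) and Stmn2 (-2.12), and 7 were lower in the mutant distal mandible than maxilla (median -2.79). Of all 13705 genes 421 were called lower between control proximal jaws and 1273 between mutant distal jaws. Of 10 epithelial markers 4 were lower in control proximal mandible than maxilla, including Epcam (-1.28) and Krt18 (-1.67), and 4 were higher distally along the control mandible. Along the control mandible 314 of all 13705 genes were called higher distally. Of 9 neural crest genes 3 were called higher in control proximal mandible than maxilla, Dlx6 (2.55), Dlx5 (1.62) and Pdgfra (0.31). Of the 9, 5 were above 0. Msx1, Msx2, Prrx2 and Alx4 went the other way, with mandible means of 12.31, 9.12, 11.48 and 6.82 against 12.54, 9.22, 11.73 and 6.85. Of 12 tendon and connective tissue genes 3 were called higher, Tbx4 (1.05), Kera (2.06) and Tbx5 (0.52). Of all 13705 genes 319 were called higher in control proximal mandible than maxilla. The part of these tissues in the contractile differences was not tested. Of 7 heart markers 3 were higher there, one of them Smpx, and of 11 smooth muscle markers 2, Ldb3 and Des, which are contractile genes of the set. Among the smooth muscle markers Acta2, an actin also made in immature skeletal muscle, read 12.84 in control proximal mandible, 10.79 in proximal maxilla and 11.03 in distal mandible; it differed by 2.04 ± 0.63 between control proximal jaws (adjusted p = 0.0552) and by 2.05 between mutant distal jaws (adjusted p = 0.0286). Acta2, Tagln, Smtn, Synpo2 and Mylk were above the low-signal level on all 32 arrays, and Myh11, the smooth muscle myosin, on 0. The mean of the smooth muscle list without contractile genes ran from 8.49 to 8.75 in control proximal mandible, 8.13 to 8.67 in proximal maxilla and 8.04 to 8.72 in distal mandible. Actc1, Tnnt2, Tnnc1, Myl4 and Casq2 are also made in heart. Of the heart list Mybpc3 was above the low-signal level on 32 arrays, Nkx2-5 on 30, Tbx5 on 28, Nppb on 25, Smpx on 13, Ankrd1 on 8, Tnni3 on 4, and Myh6, Myl7, Nppa, Gata4 and Myl2 on 0. The mean of that list without contractile genes ran from 6.89 to 7.16 in control proximal mandible, 6.51 to 6.69 in proximal maxilla, 6.74 to 7.16 in control distal mandible and 6.99 to 7.32 in mutant distal mandible. The part of smooth muscle and heart in the results was not tested.

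**Figure D5:**
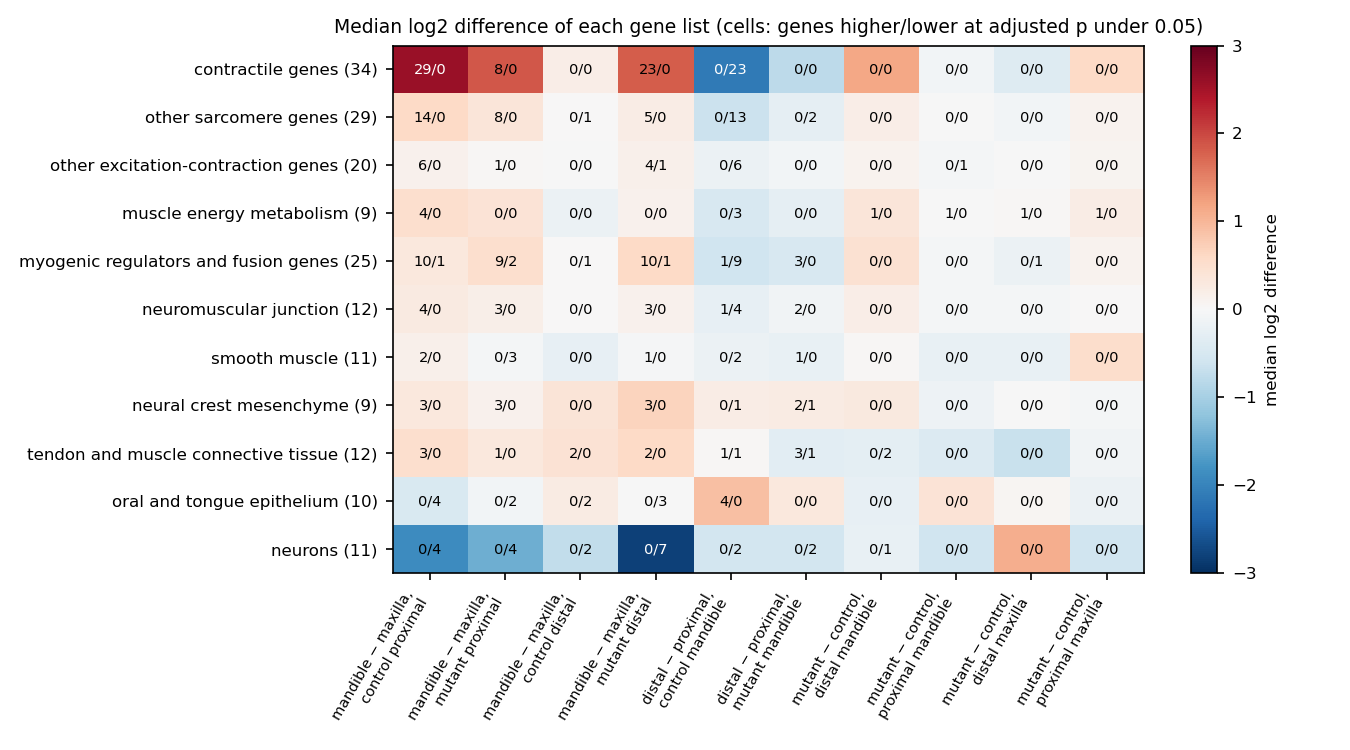
Median log2 difference (colour) of each gene list (rows, with the number tested) in 10 comparisons (columns); each cell gives the genes higher / lower at an adjusted p under 0.05 (limma). The contractile genes reach 29/0 and 0/23 in control tissue and 0/0 in each of the 4 comparisons of mutant with control, where the muscle energy list has 1 gene, Eno3.

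Other probe sets of the same genes were read on the same arrays. For 7 of the genes there were 10 further probe sets past the filter. Some had a mean over 32 arrays under the low-signal level, such as 6.10 and 6.25 for Mybpc1. Such sets can pass the filter through the groups where the gene is high, so their signs in comparisons with those groups are a description only. Between control proximal jaws the sign was that of the chosen probe set in 10 of 10 cases (median 1.45 against 2.05). The same held between mutant distal jaws and along the control mandible (median -1.45 against -1.97). For the genotype effect in the distal mandible it held in 9 of 10 (median 0.67 against 0.88). The chosen probe sets have the higher mean by rule. The size of a difference depended on the probe set for several genes besides Tnni2. Between mutant distal jaws other Ttn probe sets gave 2.22 and 0.79 against 3.26. Between control proximal jaws they gave 2.64 and 1.44 against 2.98. There Mybpc1 gave 1.26 and 1.46 against 2.12 and Ryr1 0.55 against 1.20, while Tnnt2 gave more, 3.81 against 3.46.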

How the data were processed

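Affymetrix arrays, with targets made from 5 µg of column-purified RNA per the labels' protocols, were deposited as log2 values after RMA, per the submitters' processing notes (version not stated). RMA quantile-normalises arrays and compresses differences at low signal. These deposited log2 values were used, and scanner files were not used here. Probe sets carried the platform's gene symbols. Of 45101 probe sets, 34945 had 1 symbol, 932 several and 9160 none, and 64 were controls. A probe set was kept if above the 40th percentile of its array (the low-signal level, 6.66 to 6.86) on 4 or more arrays, and the one of highest mean stood for its gene, which left 13705 genes.

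Differences were fitted with limma 3.58.1 in R 4.3.3 on the 8 groups (24 residual degrees of freedom), and the average genotype effect on 4 against 4 means over the regions (6 residual degrees of freedom). P-values were adjusted by Benjamini-Hochberg over all genes tested, with 0.05 as the threshold. Every adjusted p is from limma. The code was checked on simulated data.

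The contractile genes, other lists and tests were chosen with earlier results of these data known. Named genes are those that pass, with values in full for up to 6 of smallest p, or the 4 of smallest p where fewer than 4 pass; from each other list, up to 4 that pass. Array values are given for the 4 of smallest p between control distal jaws, the 4 along the control mandible and the 4 of largest mean genotype effect, beside further examples. Deviations of same-numbered arrays correlated above 0.1 for every number in the average genotype effect (0.20 to 0.44), between mutant proximal jaws (0.20 to 0.38) and along the mutant mandible (0.19 to 0.67). They did not for every number in the other comparisons. The numbers, which the labels give, may thus pair arrays in those 3. Control arrays of number 2 and mutant arrays of number 1 had Xist at 13.34 to 14.06 and Eif2s3y under 5 in all 4 regions. All other arrays had Eif2s3y at 9.91 or more. The numbers may therefore also pair arrays of 1 genotype in the other comparisons between regions. The fits reported above used no pairing, and counts with the number as a block are given at the end. Alternatives were a replicate block, other filters, scalings, probe set rules and sample sets, and leaving out arrays. RefSeq tables (GRCm38.p6) gave promoters only; the genome build of the probe annotation is not given in the sources used here.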

Additional observations from a re-analysis of the deposited data

Results flagged for a closer look

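In 10 groups of 4 arrays, out of 296 examined, 1 array stood far from the other 3, where chance gives about 1 in 20. That is fewer than chance gives. The contractile genes rose and fell together, so flags on the same array are not separate events. In control proximal mandible array 2 was low for Tnnc1 (11.13 against 11.82 to 11.90), Myl4 (10.56 against 11.43 to 11.45), Mylpf (11.24 against 11.79 to 11.85) and Mybph (8.70 against 9.53 to 9.54). Ttn was low on mutant distal mandible array 2 (8.88 against 9.95 to 10.03) and high on mutant distal maxilla array 4 (8.28 against 5.72 to 6.12). Tnnt3 was high on control distal mandible array 1 (6.12 against 5.53 to 5.61), still under the low-signal level. Mutant distal maxilla array 1, the array of narrowest spread, was high for Cacng1 (6.47 against 5.28 to 5.46) and Ckm (7.99 against 6.85 to 6.98). Actn3 was low on mutant proximal maxilla array 1 (7.18 against 7.49 to 7.53).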

How the results depend on the processing

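Counts of contractile genes called in the 17 comparisons kept within 1.5 times under no filter, a second quantile normalisation, subtraction of each array's median and the mean of all probe sets of a gene. With number 1 as a covariate the average genotype effect called 1 gene, Des. With only the groups compared in the fit, 0 genes were called between mutant proximal jaws and 1, Actn2, along the mutant mandible; the construction leaves fewer arrays to estimate the spread. Without the 2 arrays that stand apart, an alternative chosen after seeing the data, 10 genes were called between mutant distal jaws, 9 of them among the 23; the cause was not tested. With the replicate number as a block the counts were 27, 25 and 9 between control proximal, mutant distal and mutant proximal jaws, 21 along the control mandible and 0 in each other comparison. The block changed no count by over 1.5 times. With a replicate block by genotype and number they were 28, 24, 8 and 21. Leaving out replicates, the count ran from 15 to 29 between control proximal jaws, 2 to 24 between mutant distal jaws, 0 to 16 between mutant proximal jaws, 0 to 26 along the control mandible and 0 to 2 along the mutant mandible, and it was 0 in every other comparison. For single named genes 441 of 458 values kept their direction and side of the threshold, 17 no longer passed and 0 reversed. Medians of the list changed sign when a number was left out for the genotype effect in proximal mandible (-0.35 to 0.10) and distal maxilla (-0.78 to 0.02), for control distal jaws (-0.29 to 0.64) and along the control maxilla (-0.34 to 0.63). Of the 36 genes 27 lay under the low-signal level on some array and 9 on more than 16, where differences are compressed.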
